A study of Mus musculus with 6 samples.

Results

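MiR-451, miR-144 and miR-486 are miRNAs of red cells, and they were taken from the PCR array table by their exact names, without star strands. Of the 3 names, miR-451 and miR-486 were measured, that is 2 of the 596 mouse miRNA assays, and miR-144 was not analysed here. The arrays profiled whole aortas of 3 EC-Dicerflox mice (VE-Cadherin-CreERT2 Dicer1 flox/flox Apoe-/-) and 3 EC-DicerWT littermates (VE-Cadherin-CreERT2 Dicer1 WT/WT Apoe-/-). All mice, the controls included, lacked apolipoprotein E and carried the tamoxifen-inducible Cre. They had received tamoxifen for 5 days (2 mg per 20 g body weight) and then, at 6 to 8 weeks of age, a high-fat diet (HFD) for 4 weeks. The VE-cadherin promoter directs the Cre to endothelial cells (ECs), which are only 1 of the cell types of the aorta, and the vessels were perfused with RNAlater before RNA isolation. The comparison addressed whether loss of endothelial Dicer changed these miRNAs in the early atherosclerotic aorta. Since RNA of the whole vessel was measured, fewer cells of a type and less miRNA per cell cannot be told apart.

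Most miRNAs are cut out of their hairpin precursor by Dicer. MiR-451 is the known exception, because its stem is too short for Dicer and is cut by Argonaute 2 instead. MiR-144 is made from the same primary transcript, which the erythroid factor GATA1 switches on, and needs Dicer as usual. MiR-486 lies in the gene of ankyrin 1, a protein of the red cell membrane skeleton, is made by the usual route and is also found in striated muscle. All of them are abundant in red cells, which keep miRNAs after losing their nucleus.

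The hairpins are shown because they hold the difference in Dicer use between the cluster mates. In RefSeq (GRCm38.p6) both lie on the plus strand of chromosome 11 with 99 bases between them, between the coding genes Flot2 and Eral1. Mir144 spans chr11:78073005-78073070 and Mir451a spans chr11:78073170-78073241, where it overlaps Mir451b. Mir486 spans chr8:23142555-23142682 and overlaps Ank1, Gm15816 and Mir3107, for which the table gives the synonym mir-486b. The mature miRNA is in capitals, 5′ to 3′:
Mir451a: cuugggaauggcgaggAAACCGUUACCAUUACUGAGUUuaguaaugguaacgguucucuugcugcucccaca
Mir144: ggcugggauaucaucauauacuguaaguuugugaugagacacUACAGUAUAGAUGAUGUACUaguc
Folding with RNAfold placed the terminal loop of Mir451a at positions 35 to 38 of its 72 bases, and mature miR-451a at positions 17 to 38. All 4 loop bases thus belonged to the mature miRNA, and 17 of its other bases formed an unbroken helix of 17 pairs that ended at the loop. In Mir144 the loop was at positions 31 to 36 of 66 bases and mature miR-144-3p at positions 43 to 62, so that 0 of its bases were in the loop and 19 of 20 were paired. The seeds (bases 2 to 8) are capitalised in the mature miRNAs:
miR-451a: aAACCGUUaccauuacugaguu
miR-144-3p: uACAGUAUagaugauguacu
In the RefSeq table, 0 of the other mature miRNAs among 1674 different sequences shared the seed of miR-451a, and 0 shared that of miR-144-3p.

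**Figure D1:**
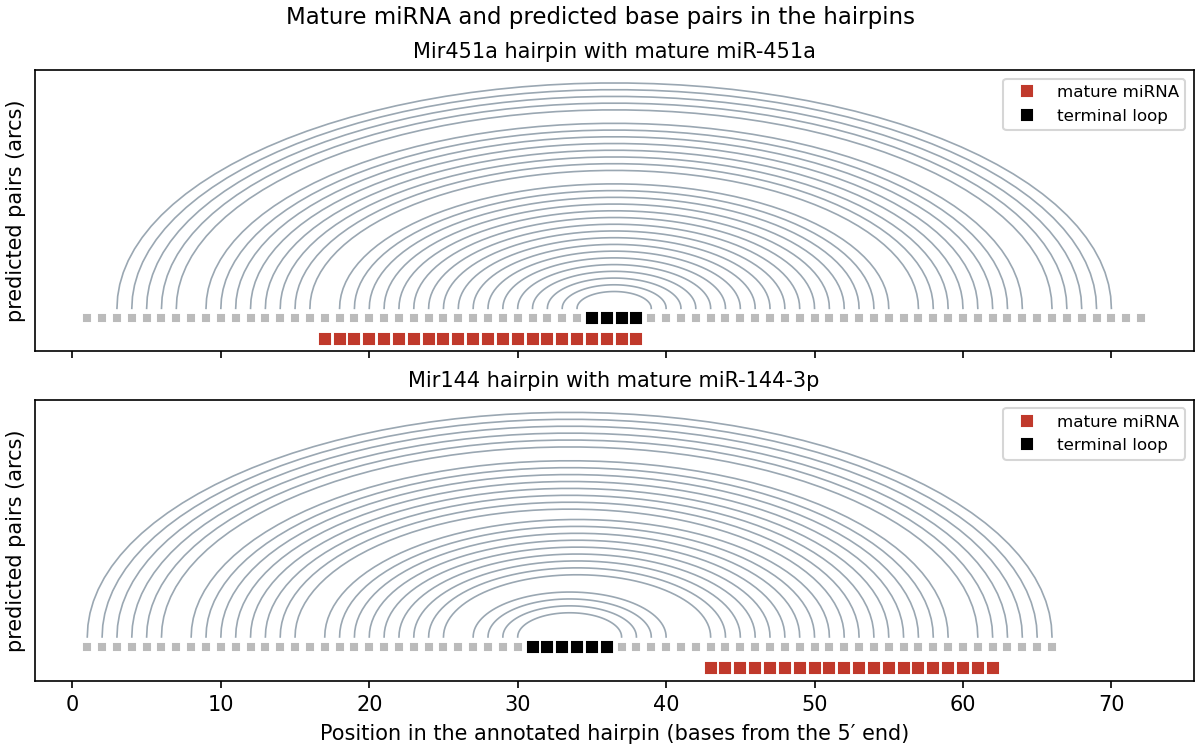
Predicted base pairs (grey arcs) of the Mir451a and Mir144 hairpins by position from the 5′ end in bases, with the terminal loop in black and the mature miRNA in red. Mature miR-451a covers all 4 loop bases, and mature miR-144-3p covers 0 of the 6 loop bases of its hairpin.

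Both miRNAs were plainly measured in every aorta, and their values followed the single sample more than the genotype. The deposited values are CT, the PCR cycle at which the signal crosses a threshold, so that 1 cycle less stands for about a doubling of the RNA, and wells without signal are listed at 40. MiR-451 had CT values of 21.2, 20.9 and 23.6 in EC-Dicerflox replicates 1, 2 and 3 and of 20.4, 21.9 and 23.5 in EC-DicerWT replicates 1, 2 and 3. MiR-486 had CT values of 21.3, 21.0 and 23.3 in EC-Dicerflox and of 20.6, 21.2 and 22.6 in EC-DicerWT mice. In both groups replicate 3 had the highest CT. The groups overlapped, with EC-Dicerflox replicate 3 above every EC-DicerWT value for either miRNA. Signal in every sample was seen for 350 miRNAs, of which 15.7% had a lower mean CT than miR-451 and 14.9% a lower mean CT than miR-486, a rank that also holds the efficiency of each assay.

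The control RNAs moved along with the samples. SnoRNA135 had CT values of 22.1, 21.7 and 24.0 in EC-Dicerflox and of 22.0, 22.3 and 23.3 in EC-DicerWT mice. U6 ranged over 0.843 cycles, against 3.22 cycles for miR-451 and 2.64 cycles for miR-486. EC-Dicerflox replicate 3 stood apart with 375 miRNAs under a CT of 40, against 402 to 415 in the other samples. The median CT of the 350 miRNAs was 28.2 in that sample, 27.5 in EC-DicerWT replicate 3 and 26.4 to 26.8 in the rest. The part of sample input in the spread of the red cell miRNAs was not tested.

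**Figure D2:**
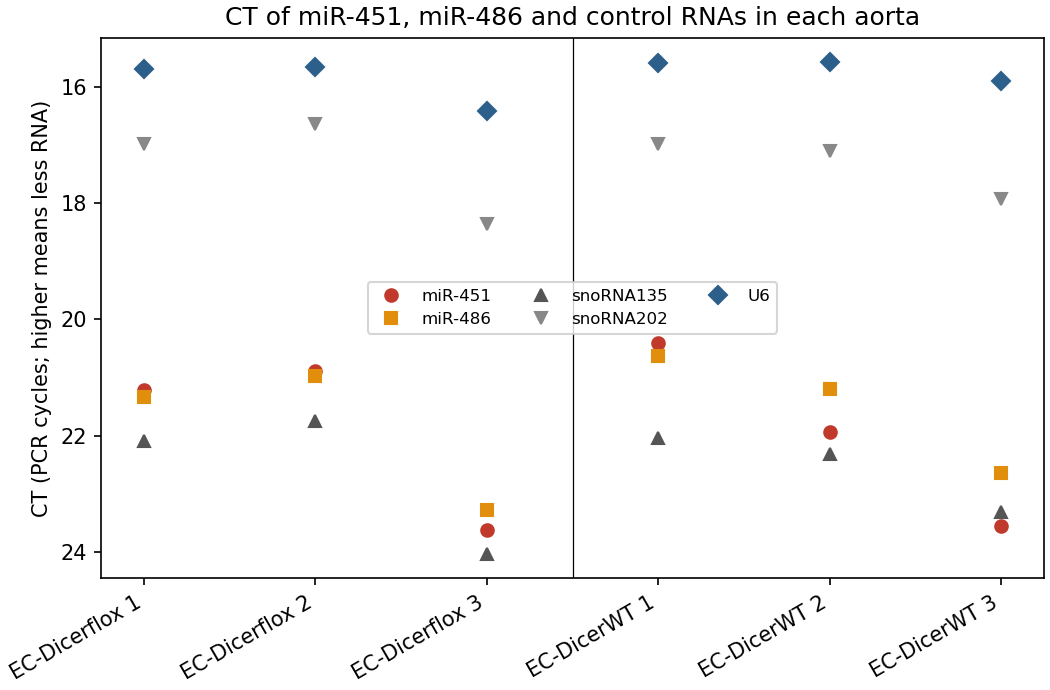
CT (cycles, axis inverted so that more RNA is higher) of miR-451, miR-486 and the control RNAs snoRNA135, snoRNA202 and U6 in each of the 6 aortas, 1 point per sample. Replicate 3 of either group is the lowest for both miRNAs, while U6 ranges over only 0.843 cycles.

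The level of neither miRNA differed between the groups beyond the spread of the replicates. The relative level is the mean CT of U6 and snoRNA135 minus the CT of the miRNA, in cycles on a log2-like scale, and a log2 fold change is its difference between the groups. The relative level of miR-451 was -2.33, -2.18 and -3.40 in EC-Dicerflox replicates 1, 2 and 3. It was -1.59, -3.00 and -3.94 in EC-DicerWT replicates 1, 2 and 3. The highest and the lowest value both belonged to EC-DicerWT mice, with the EC-Dicerflox mice between them. The means were -2.64 ± 0.666 (SD, n = 3) and -2.84 ± 1.18 (SD, n = 3). This gave a log2 fold change of 0.21 with a standard error of 0.71 and a 95% interval of -1.59 to 2.01 (limma, adjusted p = 0.973; p = 0.9 by two-sided exact permutation). Without EC-Dicerflox replicate 2 or EC-DicerWT replicate 3 the log2 fold change turned to -0.023 and -0.34, and without EC-DicerWT replicate 1 it was 0.83.

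The relative level of miR-486 was -2.44, -2.28 and -3.05 in EC-Dicerflox replicates 1, 2 and 3. It was -1.82, -2.24 and -3.03 in EC-DicerWT replicates 1, 2 and 3. Replicate 3 was again the lowest of each group, and the groups overlapped. The means were -2.59 ± 0.407 (SD, n = 3) and -2.37 ± 0.614 (SD, n = 3). This gave a log2 fold change of -0.22 with a standard error of 0.43 and a 95% interval of -1.30 to 0.86 (limma, adjusted p = 0.923; p = 0.5 by two-sided exact permutation). It turned to 0.011 without EC-Dicerflox replicate 3 and to 0.052 without EC-DicerWT replicate 1.

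The estimates of the miRNAs had opposite signs, and both intervals included 0. Of the 461 miRNAs tested with limma, 0 (0%) passed an adjusted p-value of 0.05, 14 (3.04%) had an unadjusted p-value under 0.05, 9 (1.95%) of them lower and 5 (1.08%) higher. The groups did not overlap for 48 (10.4%), of which 20 (4.34%) were lower and 28 (6.07%) higher in EC-Dicerflox mice. MiR-451 and miR-486 were in none of these sets. Among the 350 miRNAs measured in all samples, the log2 fold change of miR-451 stood above 60.6% and that of miR-486 above 27.1%, with a median of 0.10. The spread within the groups was 0.959 cycles for miR-451, larger than for 76.6% of the 350 miRNAs, and 0.521 cycles for miR-486, larger than for 53.4%. With 3 against 3 samples, 0.1 is the smallest two-sided p that exact permutation allows.

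The choice of control RNA changed the spread of both miRNAs more than the difference between the groups. With U6 alone the relative level of miR-451 ranged over 2.83 cycles and with snoRNA135 alone over 1.87 cycles, with log2 fold changes of 0.29 and 0.12. The SD over the 6 samples of the CT of miR-451 minus that of the control was 1.13 cycles for U6, 0.797 for snoRNA202, 0.642 for U87, 0.631 for snoRNA135 and 0.541 for Y1. MiR-486 followed snoRNA135 most closely among the control RNAs, with an SD of 0.286 cycles, against 0.75 for U6. Relative to snoRNA135 alone, miR-486 was at 0.764, 0.764 and 0.753 in EC-Dicerflox replicates 1, 2 and 3 and at 1.40, 1.12 and 0.67 in EC-DicerWT replicates 1, 2 and 3. EC-Dicerflox mice were nearly equal on this scale and lay within the range of EC-DicerWT mice (log2 fold change of -0.30, p = 0.4 by two-sided exact permutation). With Y1, a small RNA of Ro ribonucleoproteins, as the control, the mean difference was -0.085 for miR-451 and -0.51 for miR-486 (p = 1 and p = 0.2 by two-sided exact permutation).

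**Figure D3:**
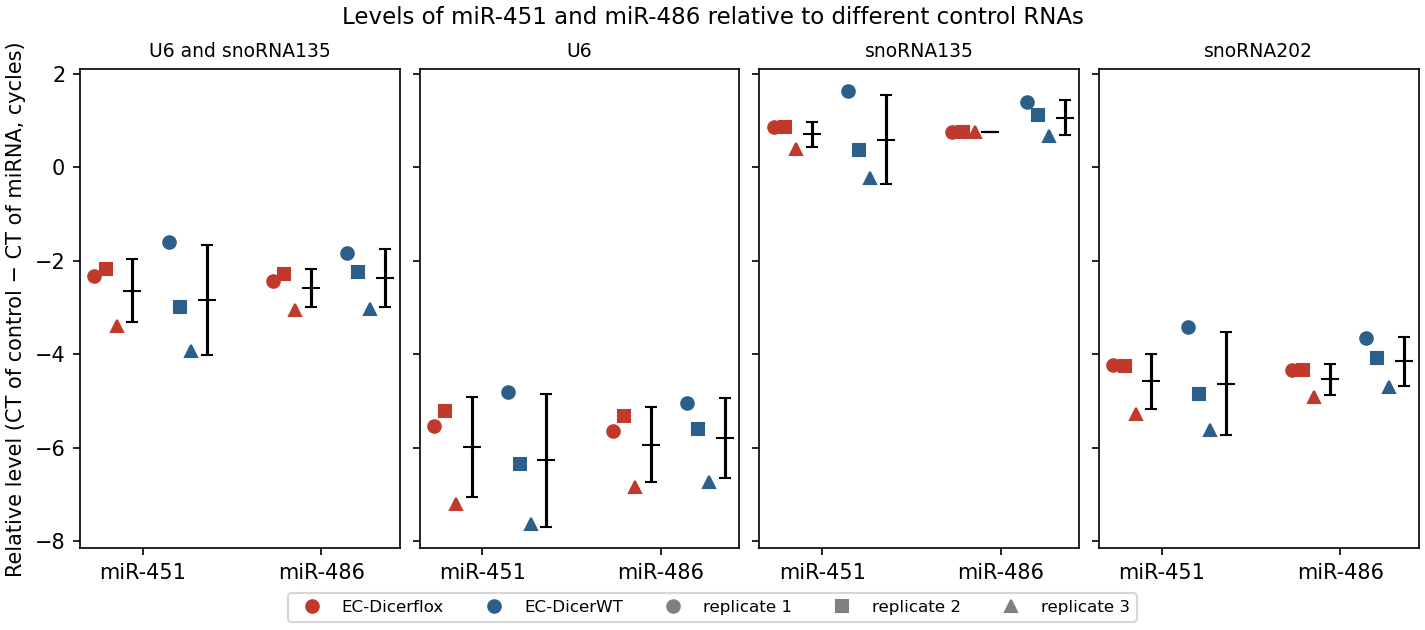
Relative level (CT of the control minus CT of the miRNA, in cycles) of miR-451 and miR-486 with 4 choices of control RNA, in EC-Dicerflox (red) and EC-DicerWT (blue) aortas, with the mean and SD of 3 samples in black. The groups overlap in every panel, and with snoRNA135 the EC-Dicerflox values of miR-486 lie between 0.753 and 0.764.

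A difference between the Dicer-independent miR-451 and the Dicer-dependent miR-486 can be read within each sample, without any control RNA. The Cre is directed to ECs, whereas both are miRNAs of red cells, so this comparison cannot decide how either depends on Dicer. In which cells they were made was not tested. MiR-144, the planned partner for this comparison, has no value here. The CT of miR-486 minus the CT of miR-451 was 0.11, 0.094 and -0.354 cycles in EC-Dicerflox replicates 1, 2 and 3. It was 0.233, -0.752 and -0.905 cycles in EC-DicerWT replicates 1, 2 and 3. The highest and the lowest values again were those of EC-DicerWT mice. The means were -0.05 ± 0.263 cycles (SD, n = 3) and -0.475 ± 0.618 cycles (SD, n = 3). MiR-486 was thus estimated 0.425 cycles lower relative to miR-451 in EC-Dicerflox than in EC-DicerWT mice, a difference within the spread of the replicates (p = 0.4 by two-sided exact permutation). In the limma fit relative to miR-451, the log2 fold change of miR-486 was -0.42 with a standard error of 0.76 and a 95% interval of -2.19 to 1.34 (adjusted p = 0.999). Taken between samples with equal replicate numbers, the difference was -0.123, 0.846 and 0.551 cycles, so that 1 of 3 pairs went the other way (p = 0.5 by an exact two-sided sign-flip test, which cannot go below 0.25). The difference was 0.779 cycles without EC-DicerWT replicate 1, where the groups no longer overlapped (p = 0.1 by two-sided exact permutation, the smallest that 3 against 2 samples allow). It was 0.21 cycles without EC-DicerWT replicate 3 and 0.286 cycles without EC-DicerWT replicate 2.

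**Figure D4:**
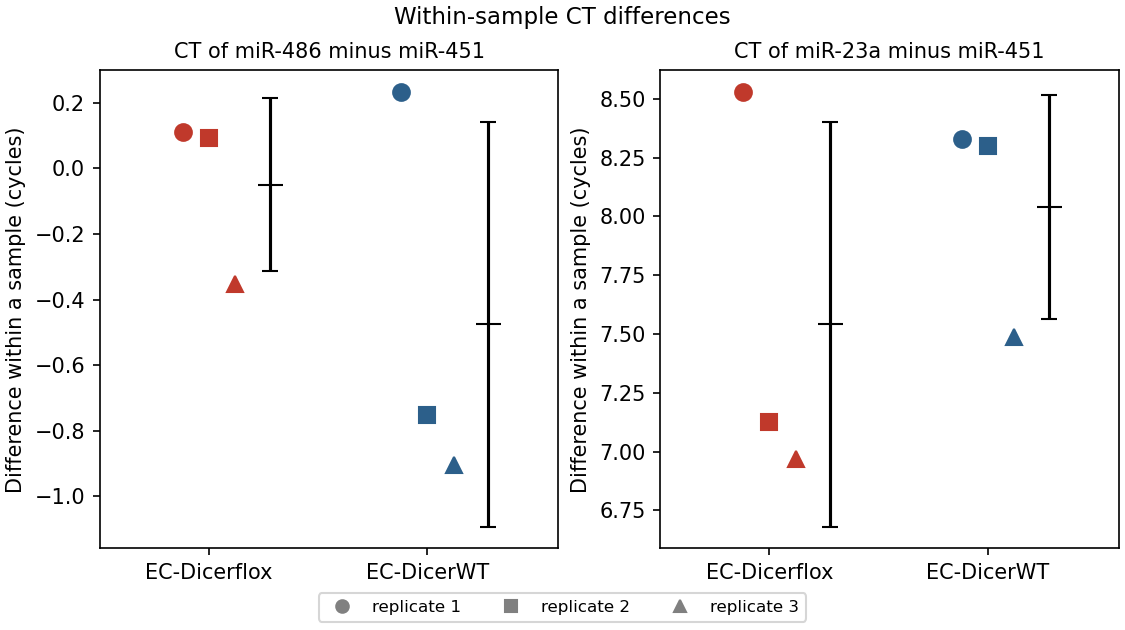
Differences in CT within a sample (cycles) in EC-Dicerflox (red) and EC-DicerWT (blue) aortas, for miR-486 minus miR-451 (left) and miR-23a minus miR-451 (right), with the mean and SD of 3 samples in black. The groups overlap in both panels, with means of -0.05 and -0.475 cycles on the left and 7.54 and 8.04 cycles on the right.

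With miR-451 as the reference, every other miRNA of the table was set against a miRNA that does not need Dicer. Of 460 miRNAs, 274 had lower and 186 had higher estimates in EC-Dicerflox mice, with a median of -0.12. With U6 and snoRNA135 as the reference, 210 were lower and 251 higher. Taking miR-451 as the reference subtracts its own log2 fold change of 0.21 from that of every miRNA alike, so that this shift of the counts is set by the scaling and is no result about the other miRNAs. At an adjusted p-value of 0.05, limma called 0 miRNAs (0%) relative to miR-451, and 11 (2.39%) had an unadjusted p-value under 0.05, of which 6 (1.3%) were lower and 5 (1.09%) higher. The groups did not overlap for 11 miRNAs (2.39%), 8 (1.74%) of them lower and 3 (0.652%) higher, and miR-486 was in neither set. With the replicate number as a block, 25 miRNAs had an unadjusted p-value under 0.05 and 0 passed the adjustment. The median SD within the groups was 0.978 cycles relative to miR-451 and 0.481 cycles relative to U6 and snoRNA135, so that miR-451 was the noisier reference.

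MiR-23a is the usual partner of miR-451 in the ratio that marks ruptured red cells in plasma, because its level in plasma changes little with red cell content. In these aortas miR-23a had a log2 fold change of 0.70 with a standard error of 0.62 (p = 0.4 by two-sided exact permutation). This was larger than the 0.21 of miR-451, so that the difference between the groups below rests more on miR-23a and has the opposite sign to the estimate of miR-451. The CT of miR-23a minus the CT of miR-451, which rises with more miR-451, was 8.53, 7.12 and 6.97 cycles in EC-Dicerflox and 8.33, 8.30 and 7.49 cycles in EC-DicerWT mice. Replicate 1 was the highest and replicate 3 the lowest of each group. The means were 7.54 ± 0.859 (SD, n = 3) and 8.04 ± 0.477 cycles (SD, n = 3), and the groups overlapped (p = 0.4 by two-sided exact permutation). The difference of -0.498 cycles was -0.993 without EC-Dicerflox replicate 1, -0.773 without EC-DicerWT replicate 3, and -0.213 and -0.29 without EC-Dicerflox replicates 3 and 2.

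Other miRNAs that are abundant in red cells or rise as they mature gave estimates on both sides of 0. Of 11 listed, 9 had an assay and were tested, 7 with higher and 2 with lower estimates and a median log2 fold change of 0.12, against 251 higher and a median of 0.082 over all 461 miRNAs. Relative to miR-451, 6 of the 9 had lower estimates and the median was -0.086, so that the direction of the median turned with the reference. MiR-16, one of the most abundant red cell miRNAs, had relative levels of -0.115, -0.083 and 0.118 in EC-Dicerflox and of 0.0065, -0.557 and 0.31 in EC-DicerWT mice. On this scale it did not follow the fall of miR-451 in replicate 3, where it was the highest of each group. In CT, miR-16 was at 19.0, 18.8 and 20.1 in EC-Dicerflox and at 18.8, 19.5 and 19.3 in EC-DicerWT mice. Replicate 3 thus had its weakest signal among the EC-Dicerflox mice, but not among the EC-DicerWT mice. MiR-96, of the miR-183 cluster, was the only one of the 9 with an unadjusted limma p-value under 0.05, against 3.04% of all miRNAs tested, and the only one whose groups did not overlap, against 10.4%. Its CT values were 32.6, 30.4 and 31.7 in EC-Dicerflox and 35.1, 40 and 33.9 in EC-DicerWT mice, so that the groups did not overlap and 1 control well had no signal. The log2 fold change of 4.92 with a standard error of 1.86 had an unadjusted p-value of 0.0433 and an adjusted limma p-value of 0.923 (p = 0.1 by two-sided exact permutation, its lower limit). It was 3.21 with CT values above 35 set to 35 (unadjusted limma p-value of 0.00743, adjusted 0.939) and 3.00 without EC-DicerWT replicate 2, the sample without signal. The unadjusted p-value was 0.0588 in limma with a replicate block and 0.0823 in an ordinary linear model. Leaving out 1 sample at a time, it was between 0.0174 (without EC-DicerWT replicate 3) and 0.113 (without EC-Dicerflox replicate 3) in limma. The cluster mates miR-182 and miR-183 had log2 fold changes of 0.30 and -0.80, with overlapping groups. Of the 4 miRNAs known to decline as red cells mature (miR-150, miR-155, miR-221 and miR-222), 2 had higher and 2 lower estimates, with a range of -0.43 to 0.25 and 0 unadjusted p-values under 0.05.

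The labelled tissue was checked by markers of its cell types. MiR-143 and miR-145 of smooth muscle had CT values of 14.7 to 18.1, and miR-126-3p of ECs had CT values of 17.1 to 19.1. The log2 fold changes were 0.14 to 0.25 for both smooth muscle assays and 0.41 to 0.85 for both EC assays, with 0 unadjusted limma p-values under 0.05. In relative level the groups did not overlap for both EC assays, as for 10.4% of all 461 miRNAs and 6.07% in the higher direction. In CT the groups overlapped for both EC assays. Of the heart muscle miRNAs, miR-208b and miR-499 were at 40 in all samples. MiR-208, chosen for this check after its values were seen, had CT values of 32.9, 34.5 and 40 in EC-Dicerflox and of 40, 33.0 and 40 in EC-DicerWT mice. It thus gave a late signal in 3 of 6 samples, and its log2 fold change was 2.02 with a standard error of 2.46. The other striated muscle miRNAs tested gave a clear signal in every sample. Their CT values were 22.9 to 24.8 (miR-1), 18.4 to 20.2 (miR-133a) and 22.2 to 23.4 (miR-133b). Their log2 fold changes were 0.13 to 0.43, and the groups overlapped for all of these and for miR-208. The 4 leukocyte assays (miR-142-3p, miR-142-5p, miR-150 and miR-223) had a median log2 fold change of -0.40, with 3 of 4 lower, against 210 of all 461 miRNAs. MiR-142-5p, whose groups overlapped in CT, was lower in relative level. Its unadjusted limma p-value was 0.00989 and its groups did not overlap, as seen in the lower direction for 1.95% and 4.34% of all miRNAs. Their part in the values of the red cell miRNAs was not tested.

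MiR-451 and miR-486 were not each other's closest companions. Likeness was measured as the SD over the 6 samples of the CT difference between both miRNAs, which is 0 when they rise and fall together by the same factor. For the pair of miR-451 and miR-486 this SD was 0.484 cycles. Over the 349 other miRNAs measured in all samples the median SD was 0.913 cycles against miR-451 and 0.63 cycles against miR-486. MiR-486 ranked 13 among the miRNAs nearest to miR-451, while miR-451 ranked 104 among those nearest to miR-486. The 5 miRNAs nearest to miR-451 were miR-106b (0.282 cycles), miR-674 (0.382 cycles), miR-18a (0.388 cycles), miR-15b (0.394 cycles) and miR-25 (0.406 cycles). The 5 nearest to miR-486 were miR-324-3p (0.149 cycles), miR-18a (0.227 cycles), miR-15b (0.229 cycles), miR-106b (0.233 cycles) and miR-1191 (0.237 cycles). MiR-106b, miR-18a and miR-15b were thus in both sets over all 6 samples.

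All 5 miRNAs nearest to miR-451 and 4 of the 5 nearest to miR-486 were on the same array card as these miRNAs, as were 65.3% of the miRNAs compared. Most of the points thus share the card, and all values of a sample share its RNA input. MiR-106b and miR-25 come from 1 cluster, miR-18a from the miR-17-92 cluster and miR-15b from a cluster with miR-16. Their mature sequences are shown, with the seed in capitals, to set the companions of the red cell miRNAs beside the seeds above:
miR-106b-5p: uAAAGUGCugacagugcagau
miR-18a-5p: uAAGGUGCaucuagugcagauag
miR-15b-5p: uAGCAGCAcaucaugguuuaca
miR-25-3p: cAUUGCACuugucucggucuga
These 4 seeds differed from each other and from those of miR-451a and miR-144-3p. In contrast to the seed of miR-451a, the seed of miR-106b-5p was shared by 6, that of miR-15b-5p by 9, that of miR-25-3p by 5 and that of miR-18a-5p by 1 of the other mature sequences.

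The ranks, more than the SDs, depended on replicate 3. Without replicate 3 of both groups, the SD against miR-451 was 0.233 cycles for miR-106b, then at rank 3, 0.375 for miR-15b at rank 25, 0.429 for miR-25 at rank 53, 0.45 for miR-18a at rank 64 and 0.478 for miR-674 at rank 77, against a median of 0.663. The SD between miR-451 and miR-486 was 0.453 cycles, slightly smaller than over all 6 samples. MiR-486 was then at rank 65 against miR-451, and miR-451 at rank 185 against miR-486, since the medians over the other miRNAs had fallen further, from 0.913 to 0.663 and from 0.63 to 0.442 cycles. Against miR-486, miR-324-3p was then at rank 7, miR-1191 at rank 12, miR-18a at rank 13, miR-15b at rank 15 and miR-106b at rank 48. Of the 3 miRNAs in both sets of 5, 0 were in both without replicate 3. Over all 6 samples, markers of the vessel wall and of leukocytes lay between 0.767 cycles (miR-142-3p, rank 100) and 1.34 cycles (miR-145, rank 290) from miR-451, with miR-126-5p at 0.791 cycles. Of the 8 other red cell miRNAs on the list measured in all samples, 4 lay nearer than any of these markers, with miR-15b at 0.394, miR-25 at 0.406, miR-92a at 0.492 and miR-185 at 0.676 cycles. The other 4 lay among or beyond the markers, with miR-210 at 0.811, miR-16 at 0.995, miR-182 at 1.24 and miR-183 at 1.6 cycles. Nearer than any marker were also miR-23a at 0.679 and miR-222 at 0.715 cycles, so this nearness was not particular to red cell miRNAs. The rest of the list that declines in red cell maturation lay among the markers, with miR-221 at 0.828, miR-155 at 0.883 and miR-150 at 0.941 cycles. For miR-486, the striated muscle miRNAs lay at 0.465 (miR-133a), 0.678 (miR-133b) and 0.912 cycles (miR-1), against the 0.484 cycles of miR-451. The listed red cell miRNAs lay at 0.229 (miR-15b), 0.283 (miR-92a), 0.301 (miR-25), 0.312 (miR-185), 0.432 (miR-210), 0.686 (miR-16), 0.908 (miR-182) and 1.3 cycles (miR-183) from miR-486. Markers of the vessel wall and of leukocytes lay between 0.456 (miR-142-3p) and 1.01 cycles (miR-145) from miR-486, within the range of the red cell list. The miRNAs that decline in red cell maturation lay at 0.305 (miR-222), 0.468 (miR-221), 0.577 (miR-155) and 0.607 cycles (miR-150).

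**Figure D5:**
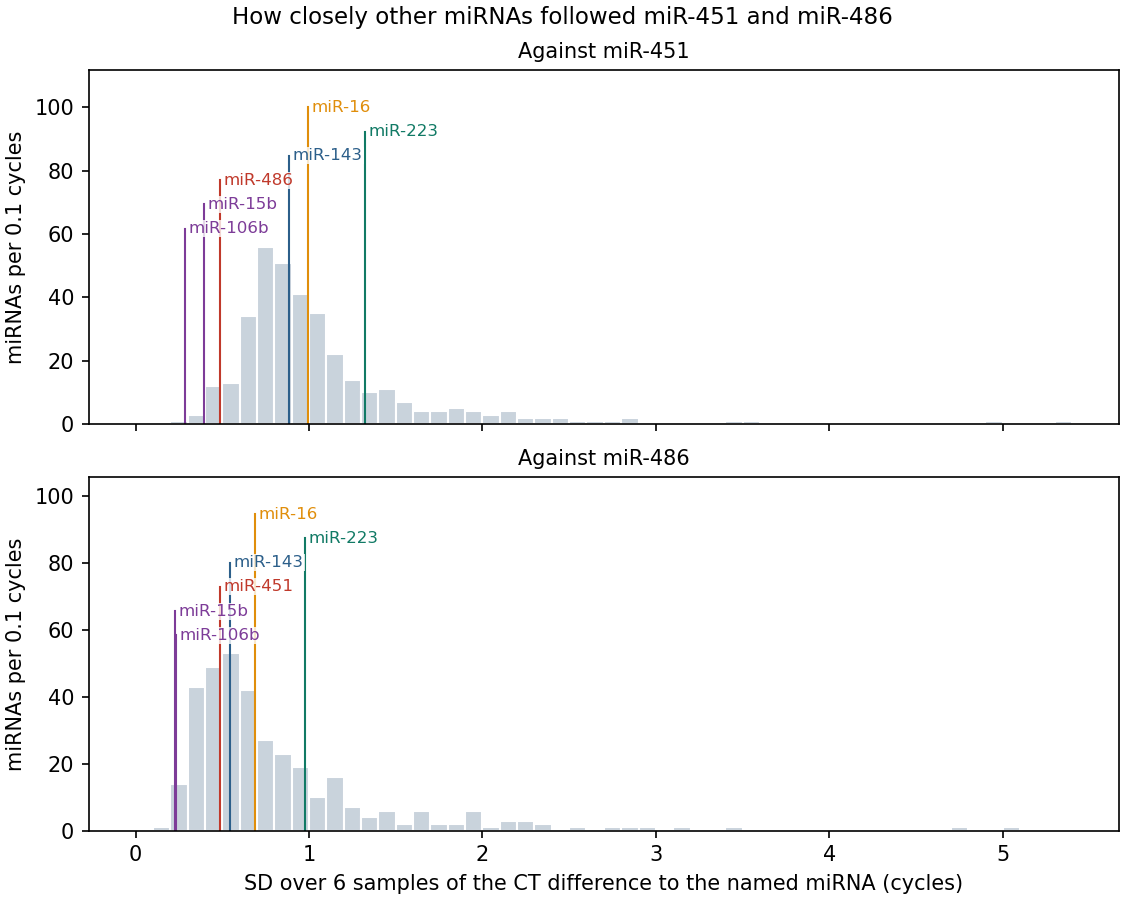
Histograms of the SD over 6 samples of the CT difference (cycles, bins of 0.1 cycles) between each of 349 miRNAs and miR-451 (top) or miR-486 (bottom), with named miRNAs marked by lines. MiR-106b lies at 0.282 and 0.233 cycles at the left edge of either histogram, and miR-223 lies at 1.32 and 0.976 cycles.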

How the data were processed

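The study's methods name rodent Megaplex pools for reverse transcription and pre-amplification, followed by TaqMan microRNA cards. The authors deposited raw CT values, with 40 for wells without signal; the setting of threshold and baseline is not given in the sources used here. Columns were matched to samples by name, and 0 were left unused. The labels describe male and the methods female mice. The members, lists and alternatives were chosen with earlier results of these data known. Named are the members, listed miRNAs and the 5 miRNAs nearest to each member.

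Minus delta CT was fitted with limma 3.58.1 in R 4.3.3 (4 control values of U6 and snoRNA135), with Benjamini-Hochberg adjustment over 461 miRNAs that gave a signal (CT below 40) in 1 or more samples, and by exact permutation (20 arrangements). The code was tested on simulated data. Cards were told apart by the style of the assay numbers. Hairpins were folded with RNAfold 2.7.2. Alternatives were other control RNAs, handling of undetermined wells, filters, moderation, a replicate block and leaving out samples. The number of arrays limits the precision. Samples with equal replicate numbers deviated from their group means in common (correlations over 350 miRNAs of 0.15, 0.224 and 0.431), although no source states a pairing and unequal numbers reached 0.285 (EC-Dicerflox 1 with EC-DicerWT 2) and 0.117 (EC-Dicerflox 2 with EC-DicerWT 1), so that mainly replicate 3 stood apart.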

Additional observations from a re-analysis of the deposited data

How the results depend on the processing

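In the 15 alternatives that used all samples, neither miRNA passed an adjusted limma p-value of 0.05. The log2 fold change of miR-486 kept its sign (-0.51 to -0.14), and that of miR-451 was 0.044 to 0.29 except with Y1 alone, where it turned to -0.085. Y1 and U87 alone were added after seeing the data. Leaving out 1 sample at a time gave -0.34 to 0.83 for miR-451 and -0.55 to 0.052 for miR-486, with both signs for either. An alternative chosen after seeing the data, without replicate 3 of both groups, gave 0.039 and -0.32. The replicate block changed no call: the log2 fold changes with the block were 0.21 (adjusted limma p = 0.885) and -0.22 (adjusted limma p = 0.8), and the within-sample differences of 0.425 and -0.498 cycles as paired values had exact sign-flip p = 0.5 for both. Leaving out 1 sample moved these differences between 0.21 and 0.779 cycles and between -0.993 and -0.213 cycles. With U6 and snoRNA135, 0 miRNAs were called in the alternatives with all samples and 0 to 2 without 1 sample (miR-453 and miR-1938 without EC-Dicerflox replicate 1, miR-804 without EC-Dicerflox replicate 3). The count at an unadjusted p-value under 0.05 was 9 with U6 alone and 24 with an ordinary linear model. Relative to miR-451 it ranged from 4 to 25, and was 13 with miR-486 as the reference, chosen after seeing the data, with 0 miRNAs called throughout. The 3 planned comparisons with miR-144 were not run. With 3 samples a group, the intervals of both miRNAs span more than 2 cycles.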
